A study of Homo sapiens with 9 samples.

Results

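Integrins and laminins were measured by RNA sequencing in OVCA433, an established human line labelled as ovarian serous adenocarcinoma, after knockdown of the predicted cell adhesion molecule MPZL3. All protein-coding genes of the count table that encode an integrin alpha subunit, an integrin beta subunit or a laminin alpha, beta or gamma chain were taken by name. Of 58676 listed genes, 37 are described here, made up of 18 alpha subunits, 8 beta subunits and 11 laminin chains. Of these, 27 had at least 10 counts in at least 3 libraries.

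The 9 libraries came from 3 groups of 3 biological replicates, marked A, B and C. Control cells carried a lentiviral shRNA control vector, and the knockdown cells carried hairpin #1 or hairpin #3 against MPZL3. All cells were grown in serum-containing medium and selected with puromycin after transduction, so the groups share the vector backbone and the drug. For these control cells, the study's methods name an empty vector and also a scrambled hairpin, and which of these was sequenced is uncertain. MPZL3 itself was counted at 15.6, 21.9 and 21.0 CPM (the gene's counts relative to the TMM-scaled library total) in control libraries A, B and C, at 1.80 to 1.98 CPM with hairpin #1 and at 0.988 to 1.94 CPM with hairpin #3 (log2 fold change of both hairpins together against control -3.49 ± 0.19 SE). Library totals were 16850854 to 23890191 counts.

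Integrins are receptors made of an alpha and a beta subunit that anchor cells to the matrix and signal from it. The α6β4 integrin binds laminin-332, which contains the LAMA3 and LAMB3 chains, and connects it through plectin to keratin filaments in the hemidesmosome of epithelial cells. Receptors with the β1 subunit bind laminins, collagens or fibronectin according to their alpha subunit and connect to actin at focal adhesions, and most αV receptors recognize the RGD motif of fibronectin, vitronectin or latent TGF-β. Ovarian carcinoma cells use these receptors when they attach to the mesothelium and the matrix below it.

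The promoter windows below belong to members whose RNA moved the most and for which RefSeq gives a window. Each runs from 250 bases before to 50 bases after a start site on GRCh38.p14 and is written 5′ to 3′ on the strand of its gene, with the E-box letters CACCTG, on either strand, in capitals. LAMA3, the alpha chain of laminin-332, is shown at an internal start (chr18:23872770-23873069, plus strand). ITGB6, the beta subunit of the TGF-β-activating αVβ6 receptor, is also shown at an internal start (chr2:160200223-160200522, minus strand). ITGA11, a subunit of a receptor for fibrillar collagen, is at chr15:68432114-68432413 on the minus strand. LAMA4, a laminin alpha chain known from vessel walls, is at chr6:112254518-112254817 on the minus strand.
LAMA3: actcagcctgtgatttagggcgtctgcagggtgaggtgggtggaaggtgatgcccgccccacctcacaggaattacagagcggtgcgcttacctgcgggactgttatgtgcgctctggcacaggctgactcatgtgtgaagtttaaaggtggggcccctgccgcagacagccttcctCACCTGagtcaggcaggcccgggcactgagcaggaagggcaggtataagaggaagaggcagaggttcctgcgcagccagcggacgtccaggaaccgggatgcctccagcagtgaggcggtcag
ITGB6: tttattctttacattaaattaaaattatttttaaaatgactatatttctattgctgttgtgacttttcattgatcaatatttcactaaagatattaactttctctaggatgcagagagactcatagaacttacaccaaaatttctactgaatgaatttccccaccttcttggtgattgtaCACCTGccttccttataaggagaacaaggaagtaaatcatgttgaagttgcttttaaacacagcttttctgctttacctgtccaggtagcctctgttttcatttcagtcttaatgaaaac
ITGA11: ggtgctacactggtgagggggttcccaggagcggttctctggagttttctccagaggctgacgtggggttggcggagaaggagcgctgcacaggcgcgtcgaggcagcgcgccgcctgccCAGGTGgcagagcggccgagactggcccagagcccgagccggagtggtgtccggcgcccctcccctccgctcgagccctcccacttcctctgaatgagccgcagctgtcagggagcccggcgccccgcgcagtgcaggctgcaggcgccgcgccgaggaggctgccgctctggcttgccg
LAMA4: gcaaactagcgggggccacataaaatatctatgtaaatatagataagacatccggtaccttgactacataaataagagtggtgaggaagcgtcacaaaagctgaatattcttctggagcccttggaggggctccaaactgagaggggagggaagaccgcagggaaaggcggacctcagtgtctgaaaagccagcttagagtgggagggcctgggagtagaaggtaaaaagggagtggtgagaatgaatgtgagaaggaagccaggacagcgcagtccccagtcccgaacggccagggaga

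Of the 37 genes, 26 had 1 or more RefSeq windows, 33 windows in all. The E-box letters were in 8 of the 33 windows and in 20.59% of 35116 promoter windows of the same length. In LAMA3 they began 73 bases before the start and overlapped an AP-1 motif (TGANTCA, either strand) that began 69 bases before it, and in ITGB6 they began 70 bases before the start. The ITGA11 window held them 130 bases before the start, and the LAMA4 window held none. Genes called in the comparison of both hairpins with control are described next. Of those with a window, 4 of 7 lower genes (LAMA3, LAMB3, ITGB6 and LAMA5) and 1 of 4 higher genes (ITGA11) held the letters. So did 2 of 10 tested genes that were not called (ITGA6 and ITGB5). A gene was counted if any of its windows held them, so the 20.59% of windows is no background for these counts. LAMB3 held them 218 bases before 1 of its starts, and its other windows did not. Over the same 33 windows, AP-1 letters were in 3, against 7.709% of all windows, TEAD letters (GGAATG) in 4, against 14.03%, and GC box letters (GGGCGG) in 19, against 44.95%. A match describes letters in a window and not a bound site.

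The first question was which of these genes differed between the 6 MPZL3 knockdown libraries and the 3 control libraries. With edgeR's quasi-likelihood test, 28 of the 37 genes could be tested, and a gene was called when its Benjamini-Hochberg adjusted p over all 15975 tested genes was under 0.05 and its absolute log2 fold change at least 1. ITGA5, ITGA11, ITGAX, ITGB2, LAMA4 and LAMC1 were higher in the knockdown, 6 genes where 7.26% of all tested genes were called higher. ITGB4, ITGB6, ITGB8, ITGA2, LAMA2, LAMA3, LAMA5 and LAMB3 were lower, 8 genes where 7.4% of all tested genes were called lower. Of the 28, ITGA11, ITGAX and LAMA1 reached the minimum count through knockdown libraries alone, and no gene through control libraries alone. A higher call of any of these genes is therefore not independent of its entry into the test. The median log2 fold change of the tested members, with ITGA11, ITGAX and LAMA1 among them, was 0.26, beside 0.0045 over all tested genes. More members were called lower (8) than higher (6). In bulk RNA, fewer cells of a type and less RNA per cell cannot be told apart.

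**Figure D1:**
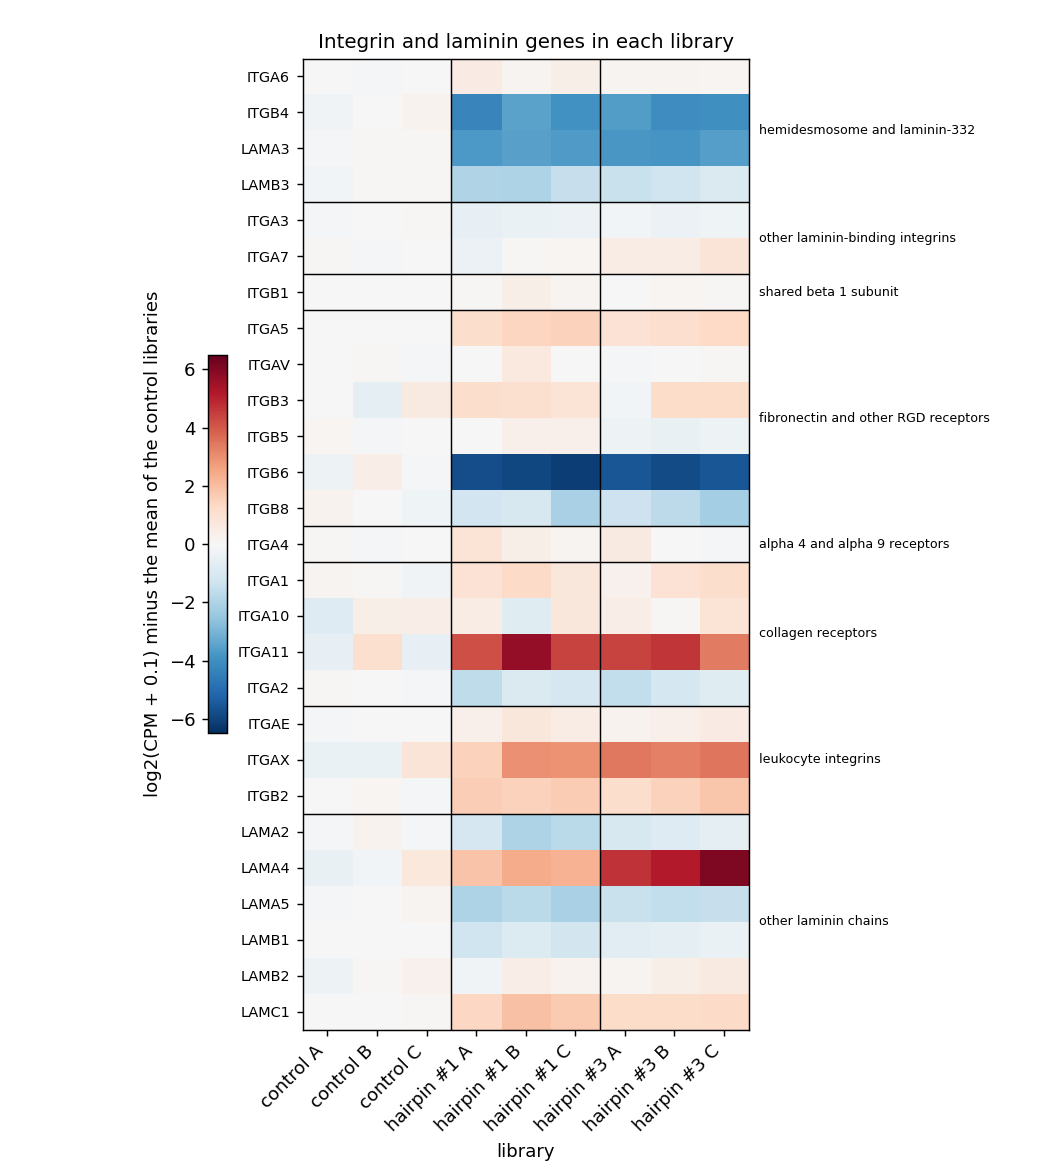
Heat map of log2(CPM + 0.1) minus the mean of the control libraries for the 27 genes with at least 10 counts in 3 libraries (rows, grouped by role) in the 9 libraries (columns); blue is lower and red is higher than control. ITGB4, LAMA3 and ITGB6 are blue in all 6 knockdown libraries, ITGA11 is red in all 6, and LAMA4 is a deeper red with hairpin #3 than with hairpin #1.

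Each hairpin was also compared with the same 3 control libraries, so these comparisons share their controls. With hairpin #1, 6 members were called higher and 9 lower, beside 7.76% and 8.55% of all tested genes. With hairpin #3, 7 were called higher and 7 lower, beside 7.46% and 7.83%. Besides the genes named above, LAMB1 was called lower with hairpin #1 alone and LAMA1 higher with hairpin #3 alone, and LAMA2 was called lower with hairpin #1 and not with hairpin #3. In the direct test of hairpin #3 against hairpin #1, LAMA1 and LAMA4 were called higher and no member lower, beside 2.22% and 1.72% of all tested genes. LAMA1 entered the test only through the hairpin #3 libraries, where it was high, so its calls are not independent of that entry. Without the fold threshold, 8 of the 28 differed between the hairpins at an adjusted p under 0.05, beside 11.6% of all tested genes.

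**Figure D2:**
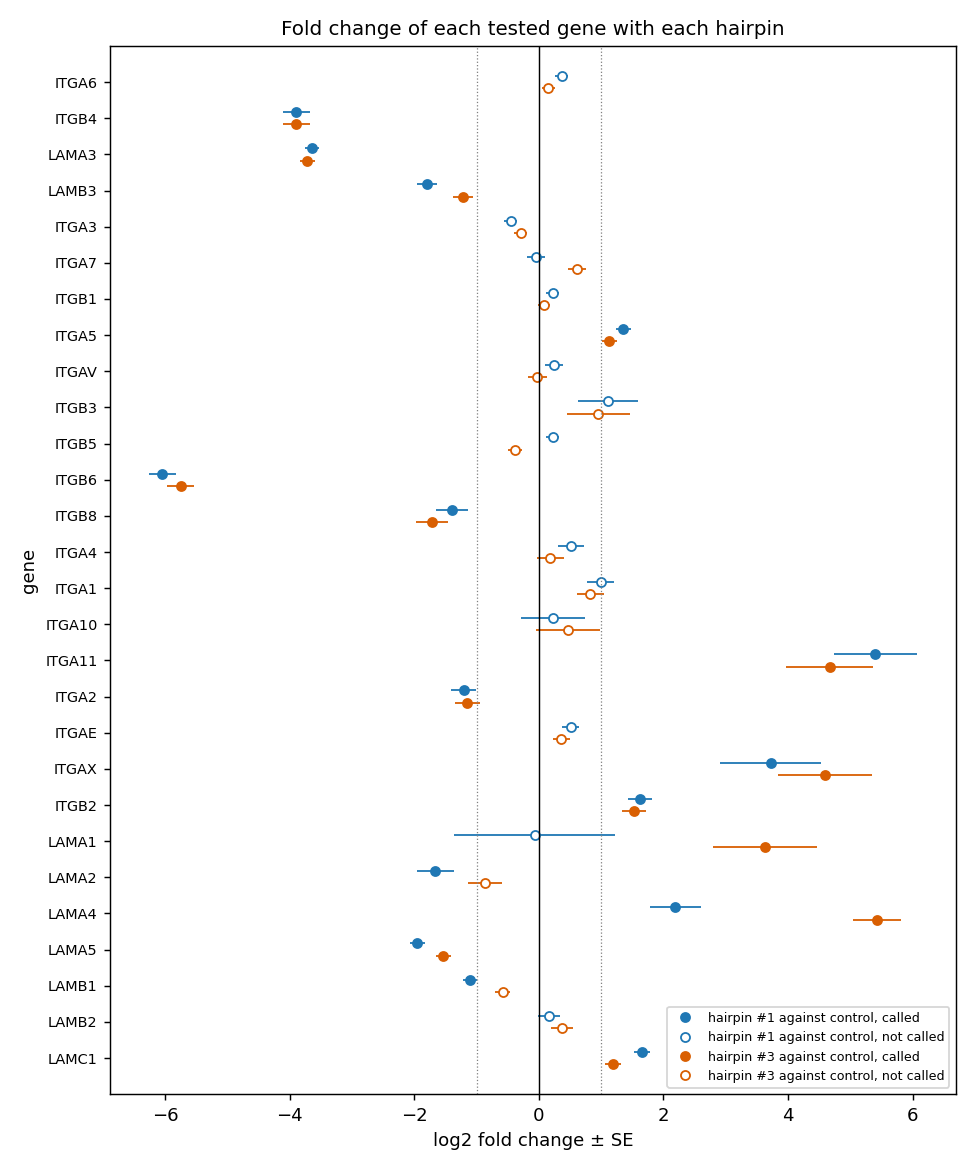
Log2 fold change against control with its SE (horizontal axis) for the 28 tested genes (vertical axis), with hairpin #1 in blue and hairpin #3 in orange; filled points were called and dotted lines mark the fold threshold. LAMA4 lies at 2.19 with hairpin #1 and at 5.43 with hairpin #3, and ITGB4 lies at -3.89 with both.

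Of the hemidesmosomal receptor and its ligand, ITGB4, LAMA3 and LAMB3 fell in the knockdown, and ITGA6, the alpha subunit, was not called. ITGB4 (chromosome 17, 75721328 to 75757818), the subunit whose long tail binds plectin, was counted at 589, 699.8 and 834 CPM in control libraries A, B and C, at 35.1, 62.6 and 45.3 CPM with hairpin #1 and at 56.3, 42.6 and 44.2 CPM with hairpin #3. Every knockdown library was far below every control library, and the hairpins overlapped. The log2 fold change was -3.89 ± 0.17 SE (adjusted p = 8.7e-09, edgeR), and each hairpin left 6.74% of the control mean. ITGA6 (chromosome 2, 172427354 to 172506282) was at 197, 180.2 and 193 CPM in control, at 275, 213 and 248 CPM with hairpin #1 and at 215, 215 and 205 CPM with hairpin #3. Its 6 knockdown libraries all lay above control, by a small margin (log2 fold change 0.26 ± 0.11 SE, adjusted p = 0.076). On the RPKM scale (CPM divided by the gene's listed length in kilobases), genes can be compared only roughly. The listed length need not be that of the transcripts expressed, which were not measured. By this scale, ITGB4 RNA was 3.61 ± 0.65 times ITGA6 RNA in control (SD, n = 3), 0.195 ± 0.082 times with hairpin #1 and 0.218 ± 0.032 times with hairpin #3.

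LAMA3 (chromosome 18, 23689443 to 23955066), which gives laminin-332 its integrin-binding end, was at 374, 430.2 and 436 CPM in control, at 30.8, 35.7 and 32.5 CPM with hairpin #1 and at 30.3, 29.1 and 34.9 CPM with hairpin #3. The knockdown libraries lay close together and did not overlap control (log2 fold change -3.68 ± 0.09 SE, adjusted p = 1.3e-10). LAMB3 (chromosome 1, 209614870 to 209652466) was at 405, 489 and 488 CPM in control, at 119.6, 115 and 164 CPM with hairpin #1 and at 169, 187 and 236 CPM with hairpin #3. The 3 groups of LAMB3 did not overlap one another, and it was lowest with hairpin #1 (log2 fold change -1.79 ± 0.16 SE with hairpin #1 and -1.22 ± 0.16 SE with hairpin #3). The difference of hairpin #3 minus hairpin #1 was 0.57 ± 0.16 SE (adjusted p = 0.030), under the fold threshold. That p was above 0.05 in 4 of the 9 fits that each left out 1 library, and was highest, at 0.121, without hairpin #3 library C.

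LAMA3 and LAMB3 did not fall by the same amount. Per length, LAMA3 RNA was 0.312 ± 0.0079 times LAMB3 RNA in control (SD, n = 3), 0.0884 ± 0.019 times with hairpin #1 and 0.0558 ± 0.0057 times with hairpin #3. In this ratio of RPKM the 3 groups did not overlap.

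**Figure D3:**
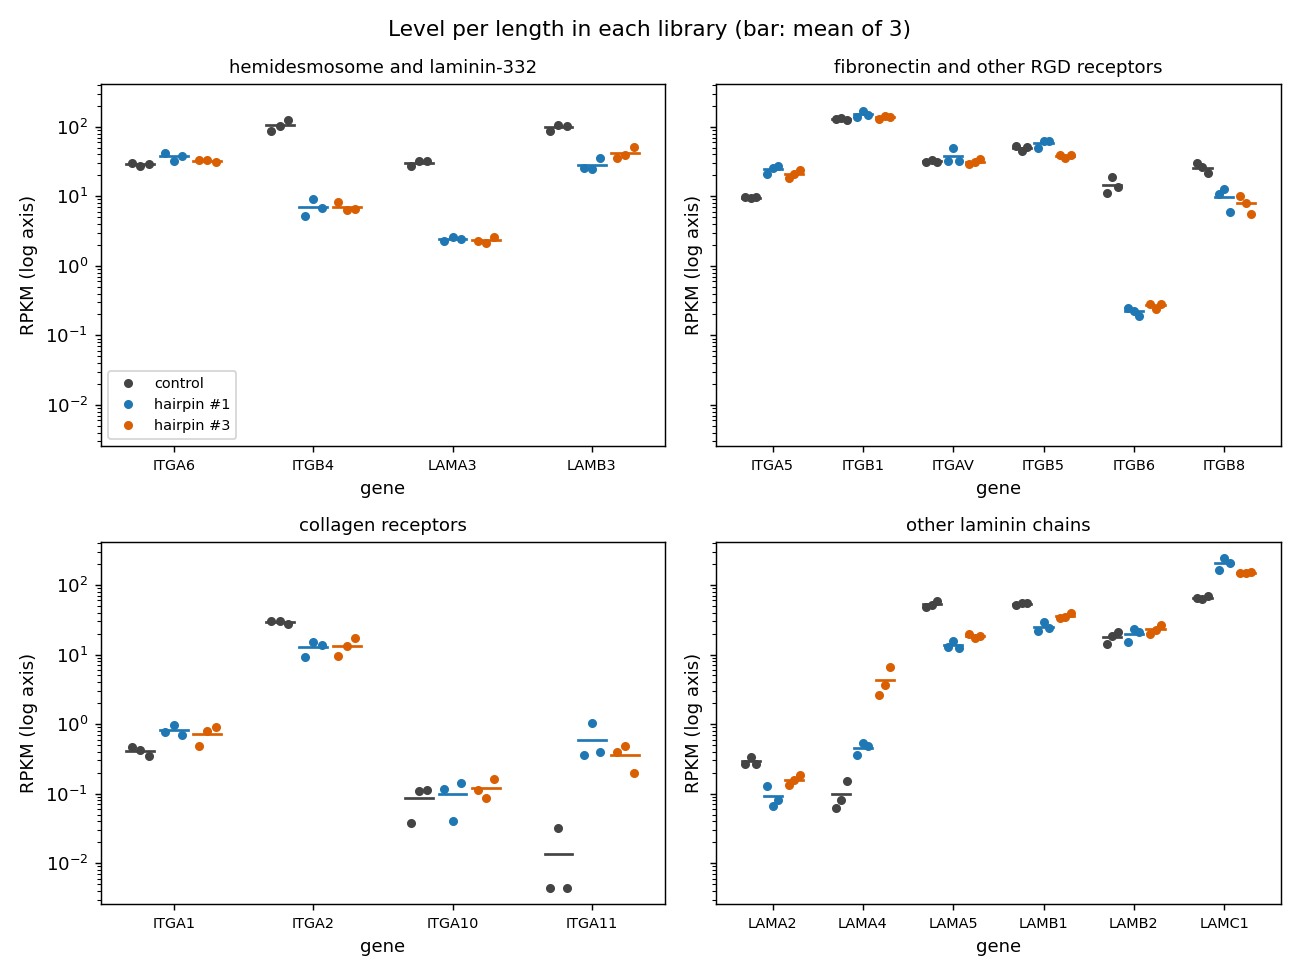
RPKM (vertical axis, logarithmic) of subunits and chains in 4 panels by role (ITGB1 is drawn with the fibronectin receptors), with 1 point per library and a bar at the mean of 3 libraries; grey is control, blue is hairpin #1 and orange is hairpin #3. ITGB4, LAMA3 and ITGB6 drop in both hairpins while ITGA6, ITGB1 and ITGAV stay near their control level, and LAMA4 steps up from control to hairpin #1 to hairpin #3.

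Other hemidesmosome genes were read from a list of 6, of which 4 could be tested. COL17A1, the collagen XVII of the hemidesmosome, was called lower (log2 fold change -1.91, from a mean of 6.35 CPM in control to 1.00 CPM with hairpin #1 and 2.41 CPM with hairpin #3). It is the only member of the list called, and was named after its value was seen. Plectin (PLEC) was at -0.48 (adjusted p = 0.014, under the fold threshold), the tetraspanin CD151 at -0.24 (adjusted p = 0.070) and dystonin (DST) at 0.08 (adjusted p = 0.64). The basal keratins KRT5 and KRT14 were at or below a mean of 0.552 CPM in every group and were not tested.

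The other laminin-binding alpha subunits were not called. ITGA3, which forms the α3β1 receptor for laminin-332 and laminin-511, had the highest RPKM of the 18 alpha subunits in every group, at 199 ± 12 in control, 145 ± 9.9 with hairpin #1 and 163 ± 12 with hairpin #3 (SD, n = 3). In CPM, all 6 knockdown libraries of ITGA3 lay below control, at a log2 fold change of -0.37 ± 0.10 SE (adjusted p = 0.012, under the fold threshold). ITGA7, known as the laminin receptor of muscle, was at 24.8 to 27.8 CPM in control, 20.1 to 29.4 CPM with hairpin #1 and 37.0 to 46.5 CPM with hairpin #3. The log2 fold change of ITGA7 was -0.04 ± 0.14 SE with hairpin #1 and 0.61 ± 0.14 SE with hairpin #3, and the difference of 0.65 ± 0.14 SE had an adjusted p of 0.010. The non-integrin laminin receptors DAG1 (-0.45), BCAM (-0.02) and RPSA (0.08) were tested, and none was called.

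ITGB1 (chromosome 10, 32900319 to 33005792), the beta subunit shared by the laminin, collagen and fibronectin receptors, was at 782, 795 and 760.4 CPM in control, at 834, 1016 and 878 CPM with hairpin #1 and at 786, 861 and 827 CPM with hairpin #3. Control and knockdown overlapped at hairpin #3 library A (log2 fold change 0.15 ± 0.09 SE, adjusted p = 0.24). Its share of the summed RPKM of the 8 beta subunits was 37.6% to 41.6% in control, 65.6% to 67.0% with hairpin #1 and 68.8% to 73.5% with hairpin #3. ITGB4 held 27.9% to 36.7% of that sum in control, 2.51% to 3.64% with hairpin #1 and 3.24% to 4.38% with hairpin #3. The sum itself was a mean of 325, 228 and 192 RPKM in the 3 groups.

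Among the fibronectin and other RGD receptors, 1 of 6 tested subunits rose, 2 fell and 3 were not called. ITGA5 (chromosome 12, 54395261 to 54419460), which with β1 forms the main fibronectin receptor, was at 74.6, 70.5 and 73.4 CPM in control, at 159, 193 and 206 CPM with hairpin #1 and at 141, 158 and 179 CPM with hairpin #3. The knockdown libraries were all well above control and the hairpins overlapped (log2 fold change 1.25 ± 0.12 SE, adjusted p = 1.1e-05). Per length, ITGA5 RNA was 0.0742 ± 0.0034 times ITGB1 RNA in control, 0.163 ± 0.020 times with hairpin #1 and 0.153 ± 0.016 times with hairpin #3 (SD, n = 3).

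ITGAV (chromosome 2, 186590065 to 186680901), the alpha subunit of the vitronectin and TGF-β-activating receptors, was at 257, 277 and 253 CPM in control, at 265, 405 and 261 CPM with hairpin #1 and at 239, 254 and 281 CPM with hairpin #3. The groups overlapped, with hairpin #1 library B above the rest (log2 fold change 0.12 ± 0.15 SE, adjusted p = 0.60). The value was -0.01 without that library. Of its partners, ITGB6 (chromosome 2, 160099666 to 160271888) was at 70.8, 121 and 86.8 CPM in control, at 1.59, 1.42 and 1.20 CPM with hairpin #1 and at 1.82, 1.54 and 1.79 CPM with hairpin #3. The 6 knockdown libraries all lay below 2 CPM. With a log2 fold change of -5.89 ± 0.18 SE (adjusted p = 6.5e-10), ITGB6 had the lowest value of the 28 tested members, and 1.51% and 1.85% of the control mean were left with hairpin #1 and hairpin #3. The gene shares 20.6% of its exon bases with AC092153.1 on the same strand, which had 16 counts in all libraries together.

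ITGB8 (chromosome 7, 20330702 to 20415754), which also pairs with αV to activate latent TGF-β, was at 458, 394 and 325 CPM in control, at 166, 192 and 89.2 CPM with hairpin #1 and at 153, 120.1 and 85.1 CPM with hairpin #3. Control and knockdown did not overlap (log2 fold change -1.55 ± 0.23 SE, adjusted p = 0.00029), and the C library was the lowest of each group. ITGB5 (chromosome 3, 124761948 to 124901418), of the αVβ5 vitronectin receptor, was at 346, 293 and 328 CPM in control, at 324, 401 and 402 CPM with hairpin #1 and at 256, 229 and 255 CPM with hairpin #3. Hairpin #3 lay below control, and hairpin #1 overlapped it. The pooled log2 fold change of ITGB5 was -0.05 ± 0.18 SE, the value with hairpin #3 was -0.39 ± 0.11 SE (adjusted p = 0.015), and hairpin #3 minus hairpin #1 was -0.61 ± 0.11 SE (adjusted p = 0.0032). ITGB3, of the αVβ3 and platelet receptors, was at 0.339, 0.199 and 0.574 CPM in control, at 0.888, 0.814 and 0.729 CPM with hairpin #1 and at 0.294, 0.933 and 0.921 CPM with hairpin #3. It was not called (log2 fold change 1.03 ± 0.44 SE, adjusted p = 0.092), but without hairpin #3 library A, where it had 5 counts, it was (1.19, adjusted p = 0.034), also with hairpin #3 alone (1.30, adjusted p = 0.0499). ITGB3 shares 51.6% of its exon bases with AC068234.1 on the same strand, which had 0 counts. How reads in the shared bases were assigned is not given, so ITGB3 may be undercounted.

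Genes around the TGF-β that αVβ6 and αVβ8 activate were read from a list of 7. LTBP1, a binding protein of latent TGF-β, fell (log2 fold change -3.47, from 15.7 CPM in control to 1.97 and 0.845 CPM with hairpin #1 and hairpin #3). The fall of LTBP1 was larger with hairpin #3 than with hairpin #1, and the direct difference of -1.23 was called (adjusted p = 0.035). LTBP4 rose (2.98), by 1.56 with hairpin #1 and 3.68 with hairpin #3, and the difference of 2.12 was called (adjusted p = 0.00090). LTBP2 was called higher in the pooled comparison (1.18) and with hairpin #3 (1.45) and not with hairpin #1 (0.85, adjusted p = 0.013, under the fold threshold), and the difference between the hairpins was not called (0.60, adjusted p = 0.13). TGFB1 was above control in all 6 knockdown libraries at 0.99 (adjusted p = 1.5e-05), just under the fold threshold, and was called higher with hairpin #3 (1.00). TGFB2, TGFB3 and LTBP3 were not called, at -0.03 to 0.44.

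Among the 4 alpha subunits of collagen receptors, ITGA2 fell, ITGA11 rose, and ITGA1 and ITGA10 were not called. ITGA2 (chromosome 5, 52989326 to 53094779), of the α2β1 receptor of epithelia and platelets, was at 244, 239 and 219 CPM in control, at 74.0, 122 and 108 CPM with hairpin #1 and at 76.0, 105 and 135 CPM with hairpin #3. No knockdown library reached control (log2 fold change -1.18 ± 0.17 SE, adjusted p = 0.00021). The value with hairpin #3 was -1.15, and -0.96 without hairpin #3 library A, which is under the fold threshold. ITGA11 (chromosome 15, 68296533 to 68432162), a receptor subunit of mesenchymal cells, was at 0.0484, 0.348 and 0.0478 CPM in control, which are 9 counts in all, at 3.88, 11.1 and 4.37 CPM with hairpin #1 and at 4.35, 5.21 and 2.12 CPM with hairpin #3. Control and knockdown did not overlap, and hairpin #1 library B was the highest (log2 fold change 5.08 ± 0.71 SE, adjusted p = 0.00017). The ratio of summed counts to control was 43.0 with hairpin #1 (95% exact interval 22.4 to 94.7) and 25.9 with hairpin #3 (13.4 to 57.4), counting error alone. Without control library B, which held most of the control counts, the log2 fold change was 6.57. ITGA11 entered the test only through knockdown libraries, where it was high, so its calls are not independent of that entry.

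ITGA1 (chromosome 5, 52787896 to 52959210), the subunit of the α1β1 receptor for basement membrane collagen, was at 8.72, 7.86 and 6.36 CPM in control, at 14.5, 18.3 and 12.9 CPM with hairpin #1 and at 9.06, 14.5 and 16.9 CPM with hairpin #3. All knockdown libraries lay above control, hairpin #3 library A only just (log2 fold change 0.91 ± 0.21 SE, adjusted p = 0.0051, under the fold threshold). Without that library the value was 1.01, and without control library A it was also 1.01, both past the threshold. With hairpin #1 the value was 0.99, and between 1.01 and 1.09 without control library A or B or hairpin #1 library A or C. The gene shares 2.56% of its exon bases with PELO on the same strand. ITGA10, a collagen receptor subunit of cartilage, was at 0.242 to 0.717 CPM in control, 0.254 to 0.900 CPM with hairpin #1 and 0.549 to 1.01 CPM with hairpin #3, and these ranges overlapped (log2 fold change 0.34 ± 0.46 SE, adjusted p = 0.61).

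ITGA2 remained the main collagen-binding alpha subunit by RPKM. It held 98.2% to 98.4% of the summed RPKM of the 4 in control, 88.2% to 91.7% with hairpin #1 and 90.6% to 93.1% with hairpin #3, while that sum was a mean of 30.1, 14.3 and 14.5 RPKM. The collagen chains these receptors bind were read from a list of 8, chosen with earlier results of these data known. All 8 were called higher with each hairpin, beside 7.76% and 7.46% of all tested genes with hairpin #1 and hairpin #3. Their pooled log2 fold changes were 1.77 to 6.31 with a median of 3.80. Of those with at least 10 CPM in a group, COL1A1 (4.74), COL6A3 (4.59) and COL5A1 (3.02) moved the most.

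ITGA1 and ITGA2 lie 30115 bases apart on chromosome 5, in the same direction, and the signs of their log2 fold changes were opposite (0.91 and -1.18, with ITGA1 not called). The 50 nearest tested genes that averaged 10 CPM or more had a median log2 fold change of -0.07 around ITGA1 and ITGA2 and 0.15 around LAMC1. For ITGB4, ITGB6 and LAMA3 the neighbours were at -0.06, -0.05 and -0.00086.

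Of the 9 laminin chains outside laminin-332 described here, 7 could be tested, of which 2 were called higher in the knockdown, 2 were called lower and 3 were not called. LAMA4 (chromosome 6, 112108760 to 112254939), the alpha chain of laminin-411, was at 0.726, 0.946 and 1.77 CPM in control, at 4.21, 6.11 and 5.53 CPM with hairpin #1 and at 30.2, 41.9 and 77.3 CPM with hairpin #3. The 3 groups did not overlap one another, and hairpin #3 was the highest. The log2 fold change was 2.19 ± 0.41 SE with hairpin #1 (adjusted p = 0.00090) and 5.43 ± 0.39 SE with hairpin #3 (adjusted p = 1.6e-07), a difference of 3.24 ± 0.32 SE (adjusted p = 3.6e-05). For both hairpins together it was 4.57 ± 1.11 SE, and 3.92 without hairpin #3 library C. LAMA1, the alpha chain of the laminin of early embryos, had 9, 14 and 28 counts with hairpin #3 and 0 to 4 counts in each of the other 6 libraries, and so had 10 counts in 2 libraries. The ratio of its summed counts, 51 with hairpin #3 against 4 with hairpin #1, was 14.4 (95% exact interval 5.30 to 54.9). The log2 difference of LAMA1 between the hairpins was 3.70 ± 0.83 SE (adjusted p = 0.011), 3.28 with an adjusted p of 0.054 without hairpin #3 library C, and 7.14 without hairpin #1 library C, which held all 4 of its counts with that hairpin.

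LAMA5 (chromosome 20, 62307955 to 62367312), the alpha chain of laminin-511 and the main alpha chain of most epithelial basement membranes, was at 696, 744 and 843 CPM in control, at 186, 225 and 178 CPM with hairpin #1 and at 279, 246 and 264 CPM with hairpin #3. The 3 groups did not overlap (log2 fold change -1.73 ± 0.14 SE, adjusted p = 2.0e-06), and hairpin #3 minus hairpin #1 was 0.42 ± 0.12 SE (adjusted p = 0.031, above 0.05 in 6 of the 9 fits that each left out 1 library, and highest, at 0.117, without hairpin #1 library C). The 50 nearest genes of LAMA5 differed between the hairpins by a median of 0.36, and their part in this difference was not tested. LAMA2, the alpha chain of muscle laminin, was at 2.71, 3.43 and 2.72 CPM in control, at 1.31, 0.661 and 0.815 CPM with hairpin #1 and at 1.35, 1.59 and 1.89 CPM with hairpin #3. It was below control in all 6 knockdown libraries (log2 fold change -1.22 ± 0.30 SE, adjusted p = 0.0083). Its value with hairpin #3 was -0.87, under the fold threshold, and the difference between the hairpins was 0.80 ± 0.31 SE (adjusted p = 0.12; 1.12 and 0.045 without hairpin #1 library A).

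LAMC1 (chromosome 1, 183023460 to 183145592), the gamma chain of most laminins, was at 539, 535 and 584 CPM in control, at 1399, 2033 and 1767 CPM with hairpin #1 and at 1254, 1245 and 1300 CPM with hairpin #3. The groups did not overlap, and hairpin #1 was the highest (log2 fold change 1.44 ± 0.17 SE, adjusted p = 4.5e-05; hairpin #3 minus hairpin #1 -0.45 ± 0.13 SE, adjusted p = 0.035). The p of that difference was above 0.05 in 6 of the 9 fits that each left out 1 library, and was highest, at 0.128, without hairpin #3 library B. LAMB1 was at 427 to 448 CPM in control, 180.2 to 239 CPM with hairpin #1 and 276 to 322 CPM with hairpin #3. Its log2 fold change was -1.10 ± 0.12 SE with hairpin #1 and -0.58 ± 0.11 SE with hairpin #3, which differed by 0.52 ± 0.11 SE (adjusted p = 0.010). LAMB2 was at 96.3 to 144 CPM in control and 105 to 182 CPM in the knockdown, and was not called (0.27 ± 0.17 SE, adjusted p = 0.26).

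By RPKM, LAMC1 was at 65.7 ± 3.2 in control, 206 ± 38 with hairpin #1 and 151 ± 3.5 with hairpin #3 (SD, n = 3). The summed RPKM of the laminin alpha chains was a mean of 84.2 in control, 16.7 with hairpin #1 and 25.3 with hairpin #3. LAMA3 held 35.1% to 37.8% of that sum in control, 13.9% to 15.6% with hairpin #1 and 9.13% to 9.29% with hairpin #3, and LAMA4 held 0.0818% to 0.167%, 2.30% to 3.10% and 10.6% to 23.9%. LAMA5 was the main alpha chain in every library, at 61.7% to 83.0% of the sum.

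**Figure D4:**
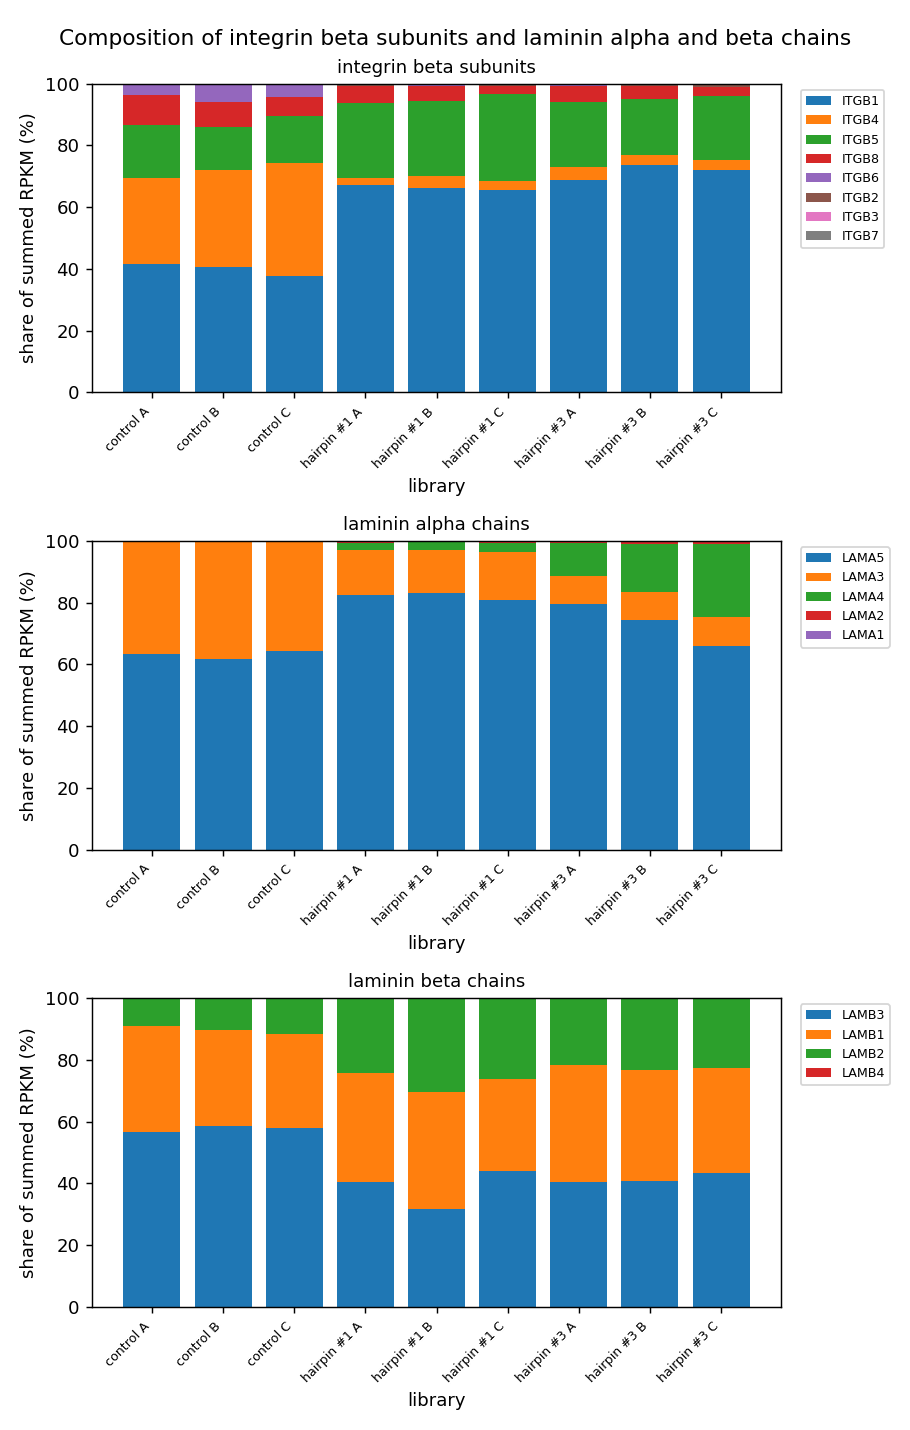
Share of the summed RPKM in percent (vertical axis) that each integrin beta subunit and each laminin alpha and beta chain took in each of the 9 libraries (horizontal axis). ITGB4 takes 27.9% to 36.7% of the beta subunits in control and 2.51% to 4.38% in the knockdown, and LAMA4 is visible as an alpha chain mostly with hairpin #3.

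Of the 7 subunits best known from leukocytes, 3 could be tested, of which ITGB2 and ITGAX rose. ITGB2 (chromosome 21, 44885953 to 44931989), the shared beta subunit of leukocyte integrins, was at 2.90, 3.19 and 2.63 CPM in control, at 8.93, 8.39 and 9.47 CPM with hairpin #1 and at 6.41, 8.23 and 10.4 CPM with hairpin #3. All knockdown libraries lay above control, and the hairpins overlapped (log2 fold change 1.57 ± 0.18 SE, adjusted p = 3.2e-05). ITGB2-AS1, on the other strand, shares 4.46% of the exon bases of ITGB2 and had 146 counts in all libraries together beside 1240 for ITGB2. ITGAX, an alpha subunit of myeloid cells, had 0, 0 and 3 counts in control, 6, 19 and 21 with hairpin #1 and 23, 22 and 30 with hairpin #3. Every knockdown library exceeded control, and the ratio of the summed counts of both hairpins to control, scaled by library size, was 20.5 (95% exact interval 6.85 to 101). The fitted log2 fold change of ITGAX was 4.21 ± 0.82 SE (adjusted p = 0.0018), and 7.36 without control library C, which held all 3 control counts. ITGAX entered the test only through knockdown libraries, where it was high, so its calls are not independent of that entry. Its neighbours ITGAM and ITGAD had at most 8 counts in any library. ITGAE, the alpha subunit of the E-cadherin receptor of T cells, was at 12.2 to 12.9 CPM in control and 14.6 to 20.9 CPM in the knockdown (0.44 ± 0.13 SE, adjusted p = 0.021, under the fold threshold), and shares 6.41% of its exon bases with HASPIN on the other strand. A list of 5 leukocyte markers summed to 0.547 to 0.969 CPM in control, 0.515 to 1.31 CPM with hairpin #1 and 0.184 to 1.30 CPM with hairpin #3, with LYZ at 0 in all libraries and PTPRC at a mean of 0.343 to 0.469 CPM.

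ITGA4, which with β1 binds fibronectin and VCAM1, was at 16.9 to 19.6 CPM in control, 20.4 to 34.4 CPM with hairpin #1 and 16.8 to 28.0 CPM with hairpin #3, and was not called (0.36 ± 0.21 SE, adjusted p = 0.22). The 9 remaining genes had fewer than 10 counts in 7 or more libraries and were not tested. ITGB7 reached 11 counts and shares 42.1% of its exon bases with ZNF740, ITGA9 reached 9, ITGA2B, ITGAD, LAMB4 and LAMC3 reached 8, ITGAL 5 and ITGAM 4. ITGA8 had 0 counts in every library, which allows up to 3 counts per library.

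Adaptors and ligands of integrins were read from lists to place these values. Of 22 tested focal adhesion adaptors, 6 were called higher and 2 lower in the knockdown, beside 7.26% and 7.4% of all tested genes. Their median log2 fold change was 0.29, beside 0.0045 over all tested genes. The largest rises at 10 CPM or more were those of LIMS2 (3.43), which binds integrin-linked kinase, and of the actin and integrin linkers TNS1 (2.90) and TNS2 (2.15). LIMS2 rose by 3.96 with hairpin #1 and 2.59 with hairpin #3, and the difference of -1.37 was called (adjusted p = 0.0016). The lower ones, named after their values were seen, were FERMT1 (-1.49), the kindlin of epithelia, and the kinase PTK2B (-1.79). Of 10 tested integrin ligands and basement membrane proteins, 6 were called higher, beside the same 7.26% of all tested genes, and 4 were not called. Their median was 1.65. Agrin (AGRN), one of the latter and named after its value was seen, was at -0.45 (adjusted p = 0.034, under the fold threshold). Among the higher genes were FBN1 (5.16), TNC (2.69) and FN1 (2.28), the fibrillin-1, tenascin-C and fibronectin genes. FN1, the ligand of α5β1, had a mean of 1593 CPM in control, 8442 CPM with hairpin #1 and 7047 CPM with hairpin #3.

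Markers of other cell types were read beside these values. The 6 fibroblast markers summed to 1.94 to 2.53 CPM in control and 14.0 to 24.9 CPM in the knockdown, mostly from PDGFRB. Of these 6, 3 could be tested, and all 3 were called higher (pooled log2 fold change 1.09 to 7.43), beside 7.26% of all tested genes. At such control levels a marker can enter the test through knockdown libraries alone, so these calls are not independent of that entry. DCN was at 0 in all libraries, and TCF21 was at 0 in all control libraries but not in all libraries of either hairpin. The 5 endothelial markers summed to 0.796 to 1.16 CPM in control and 2.20 to 6.86 CPM in the knockdown, with EMCN at 0 and PECAM1 at a mean of 0.0325 to 0.0938 CPM. Of 3 tested endothelial markers, 1 was called higher (4.86), with the same limit of entry, and 2 were not called. The 5 mesothelial markers summed to 124 to 159 CPM in control, 94.1 to 110.2 CPM with hairpin #1 and 155 to 197 CPM with hairpin #3. Of 3 tested mesothelial markers, 1 was called lower in the pooled comparison (-6.49) and 2 were not called. With hairpin #3, 2 were called higher and 1 lower, beside 7.46% and 7.83% of all tested genes. Of the 8 markers of ovarian serous carcinoma, which summed to 9979 to 12060 CPM in control and 5178 to 6703 CPM in the knockdown, PAX8 was present in all groups, WT1 was at 0 throughout and MUC16 at 0 in the knockdown. Of the 7 tested in this list, 4 were called lower, 1 higher and 2 were not called. Over all tested genes, 7.4% were called lower and 7.26% higher. The median log2 fold change of these 7 was -1.18. The part of these markers in the rises of ITGA11 and LAMA4 and in the falls of ITGB4, ITGB6, LAMA3 and LAMB3 was not tested.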

How the data were processed

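The authors aligned the reads with HISAT2 and deposited 1 table of raw counts per gene, with no normalization or filter. Per the labels, featureCounts 1.5.0-p3, HISAT2 2.0.5 and the build hg38 were named in the submitters' processing notes, and libraries were poly(A)-selected and non-directional, so genes that overlap on opposite strands cannot be separated. The annotation release is not given in the sources used here; 34 of the 37 genes have the same coordinates in GENCODE 29. Promoter windows were taken from RefSeq (GRCh38.p14).

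The counts were filtered with filterByExpr (minimum count 10, minimum total 15), scaled with TMM factors and fitted with edgeR 4.0.16 (glmQLFit, glmQLFTest) in R 4.3.3 over 15975 genes, with Benjamini-Hochberg adjustment over all of them. Both hairpins formed 1 arm of 6 libraries, as in the study, and a 3-group model gave each hairpin against control and the direct difference. Each SE is the absolute log2 fold change divided by the square root of F. RPKM is the TMM-scaled CPM per kilobase of the length listed in the table. Ratios, shares and ranks between genes depend on that length, which need not be that of the transcripts expressed. Intervals of count ratios are exact binomial intervals and cover counting error only, since PCR copies are not independent molecules. The code was tested on simulated counts. Members of role lists passing the 10-count rule in the hemidesmosome, RGD, collagen and β1 lists, and any member called in the pooled comparison, were given in every library; of other lists, the 3 largest changes at 10 CPM or more. The members and lists were chosen with earlier results of these data known, and 1 further gene that matched the naming rule is not reported here and enters no count of members. Alternatives covered filters, scaling, a replicate block, DESeq2 1.42.0, the thresholds, and each library left out. The replicate letters were not taken as pairs: correlations of same-letter deviations were 0.0373 to 0.361 and not all over 0.1. They were highest among the A libraries, at 0.306 to 0.361, while A libraries against other letters were at -0.101 to -0.322. The A libraries thus shared some variation across groups, which the main model leaves out and the replicate block takes in.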

Additional observations from a re-analysis of the deposited data

Results flagged for a closer look

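The effect against control differed between the hairpins for 8 of the 28 tested genes, by the direct test of hairpin #3 against hairpin #1 (adjusted p under 0.05 over all tested genes, edgeR, whatever the fold), beside 11.6% of all tested genes. Values are log2 differences of hairpin #3 minus hairpin #1. Higher with hairpin #3 were LAMA1 (3.70), LAMA4 (3.24), ITGA7 (0.65), LAMB3 (0.57), LAMB1 (0.52) and LAMA5 (0.42). LAMA1 entered the test only through the hairpin #3 libraries, where it was high. Lower with hairpin #3 were ITGB5 (-0.61) and LAMC1 (-0.45). For LAMB3, LAMB1 and LAMA5 both hairpins were below control with the smaller fall in hairpin #3, and for LAMC1 both were above control with the smaller rise in hairpin #3. ITGB5 was at 0.22 against control with hairpin #1 (adjusted p = 0.14, edgeR) and at -0.39 with hairpin #3 (adjusted p = 0.015). Signs also differed for ITGA7 (-0.04 with hairpin #1 and 0.61 with hairpin #3) and LAMA1 (-0.07 and 3.63). None of these hairpin #1 values was called. With each of the 9 libraries left out in turn, 4 of these 8 kept an adjusted p under 0.05 in every fit (LAMA4, ITGA7, LAMB1 and ITGB5) and 4 did not. For LAMA1 the adjusted p reached 0.054 without hairpin #3 library C. It was above 0.05 for LAMB3 without hairpin #1 library A or B or hairpin #3 library B or C (highest 0.121), for LAMA5 without control library B, hairpin #1 library A or C or any hairpin #3 library (highest 0.117), and for LAMC1 without control library B, hairpin #1 library B or C or any hairpin #3 library (highest 0.128). Groups of 3 libraries are too small for the check for single outlying libraries, which was not run.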

How the results depend on the processing

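The number of members called in the pooled comparison was 14, and 13 to 16 over its alternatives other than the removal of the fold threshold, which gave 18. The numbers for hairpin #1 and hairpin #3 stayed within 1.5 times of 15 and 14. For hairpin #3 against hairpin #1 the number was 2, and it was 1 with a mean of at least 1 CPM, 1 at an adjusted p under 0.01, 8 without the fold threshold, and 1 to 3 with each library left out in turn. The replicate letter as a block gave 14, 15, 14 and 2 members in the pooled, hairpin #1, hairpin #3 and direct comparisons, and moved the calls over all genes from 2342, 2605, 2443 and 628 to 2306, 2675, 2515 and 754. Control library B and hairpin #1 library B did not correlate best with their own letter.

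Among single genes, no called value changed sign under any alternative. Signs of uncalled values near 0 did, and their ranges with each library left out were, against control with both hairpins, -0.0147 to 0.158 for ITGAV, -0.142 to 0.0174 for ITGB5 and -0.0148 to 0.571 for ITGA10. With hairpin #1 they were -0.15 to 0.11 for ITGA7, -0.13 to 0.57 for ITGA10 and -3.51 to 1.16 for LAMA1. With hairpin #3 they were -0.0891 to 0.0266 for ITGAV and -0.0797 to 0.327 for ITGA4. Between the hairpins they were -0.18 to 0.25 for ITGB4, -0.38 to 0.19 for ITGB3, -0.357 to 0.0518 for ITGA1, -0.11 to 0.59 for ITGA10, -0.15 to 0.25 for ITGA2 and -0.281 to 0.0598 for ITGB2. The difference of ITGB4 between the hairpins, 2.0e-05, was -0.00039 with DESeq2 size factors and -0.00044 with DESeq2. With the thresholds kept, single-gene calls changed in 12 cases among genes still tested (24 members with a mean of at least 1 CPM), all with a library left out: 10 gained (7 for ITGA1, 2 for ITGB3 and 1 for LAMA2) and 2 lost (ITGA2 and LAMA1). The causes were not tested. With few counts, ITGB3, ITGA10, ITGAX, LAMA1 and the control level of ITGA11 are the least precise values, and the 9 genes under the count minimum show neither a change nor its absence.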
